A study of Mus musculus with 9 samples.

Results

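The NF-kB genes described here are 10 genes of the deposited table: the 5 subunits Nfkb1, Nfkb2, Rel, Rela and Relb, the inhibitors Nfkbia, Nfkbib and Nfkbie, and the feedback genes Tnfaip3 and Birc3. They were chosen by name from a table of 24493 genes, and 10 of the 10 were found and passed the filter of a mean of at least 1 TPM (transcripts per 1000000, a level scaled to transcript length and to the library). RNA-seq of polyadenylated RNA was done on 9 samples of C57BL/6 mouse pancreatic tumor cells of clone 6419c5 that had been implanted under the skin and grown as late stage tumors. There were 3 samples each of WT, Usp22-KOA and Usp22-KOB, and the design set Usp22-WT against Usp22-KO cells. Usp22 encodes a deubiquitinase of the SAGA chromatin complex. All groups come from a single tumor clone. The labels do not say what distinguishes KOA from KOB, whether the 9 samples came from separate animals, or how host cells were dealt with, so p-values measure the spread between these samples only.

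NF-kB is a family of dimeric transcription factors. In resting cells, IkB proteins such as those made from Nfkbia, Nfkbib and Nfkbie hold the dimers in the cytoplasm. Signals from TNF, interleukin-1 and Toll-like receptors activate the IKK kinases, which mark the IkB proteins for degradation and free the dimers to enter the nucleus. Several genes that the dimers switch on, among them Nfkbia and Tnfaip3, encode proteins that end the signal. In pancreatic tumors the pathway is known for its part in inflammation, survival and the recruitment of immune cells. RNA levels do not show where the proteins are or whether they are active.

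Usp22 was low in all knockout samples, at 55.1, 54.5 and 56.4 TPM for WT, 9.77, 8.46 and 10.1 TPM for Usp22-KOA and 11.8, 14.9 and 14.1 TPM for Usp22-KOB (two-sided exact permutation test over 84 splits, p = 0.0119, the smallest it can give). Each library sums to 1000000 TPM, so the read depth is unknown. Per library, 6520 to 7234 genes had a value of 0. The defining markers of the labelled cell type were mixed: Krt19, a duct keratin, stood at 2065 ± 60.6 TPM for WT, 2814 ± 258 TPM for Usp22-KOA and 1911 ± 219 TPM for Usp22-KOB (mean ± SD, n = 3), whereas Epcam, an epithelial surface protein, fell from 379 ± 18.4 TPM to 37.7 ± 15.2 and 31.3 ± 5.31 TPM. Over a wider list of 7 epithelial markers, 5 were lower and 0 higher for both knockouts against WT (limma adjusted p under 0.05). Markers of macrophages, neutrophils and fibroblasts were also present in all groups, and marker values are given beside the NF-kB genes.

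Against WT, the knockouts had less Rela RNA and more Nfkbia RNA on average, while the other 8 genes were not called (called here means an adjusted p under 0.05 in limma, with Benjamini-Hochberg adjustment over 13843 genes). The 1 gene called higher and the 1 called lower stand against 25.9% of all tested genes called higher and 24.1% called lower. In Usp22-KOA against WT, 1 of the 10 was called lower (Rela) and 0 higher, beside 26.9% lower and 29.4% higher among all genes. In Usp22-KOB against WT, 2 were called higher (Nfkbia and Nfkbib) and 0 lower, beside 18.7% and 18.4% of all genes. An unadjusted p under 0.05 in limma was found for 3 of the 10 for both knockouts, 2 for Usp22-KOA and 4 for Usp22-KOB. No share of all genes at this looser threshold is given here, so these unadjusted counts have no background and are not read further. Usp22-KOA and Usp22-KOB were compared directly as well, and there 1 gene was called higher in Usp22-KOA (Nfkb1) and 4 lower (Nfkb2, Rela, Nfkbib and Tnfaip3), beside 27.5% and 24.2% of all genes. With 10 genes, none of these counts is read as standing apart from the share of all genes. Both comparisons with WT use the same 3 WT samples.

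The median difference was smaller than that of all tested genes in each comparison, and least so in Usp22-KOB against WT. In that comparison Nfkbia changed more than 76.4% of tested genes, Nfkbie more than 64.0% and Nfkbib more than 62.5%. For the other genes of the set this share ran from 4.62% (Relb) to 55.9% (Rel). The median absolute log2 difference of the 10 genes was 0.14 for both knockouts against WT, 0.15 for Usp22-KOA, 0.19 for Usp22-KOB and 0.21 for Usp22-KOA against Usp22-KOB. Over all tested genes the same medians were 0.27, 0.37, 0.23 and 0.32. Signed medians of the 10 genes were 0.06, 0.06, 0.18 and -0.20, beside 0.01, 0.02, -0.01 and 0.03 over all genes. All log2 differences are on the log2(TPM + 1) scale, and their errors are standard errors from limma.

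**Figure D1:**
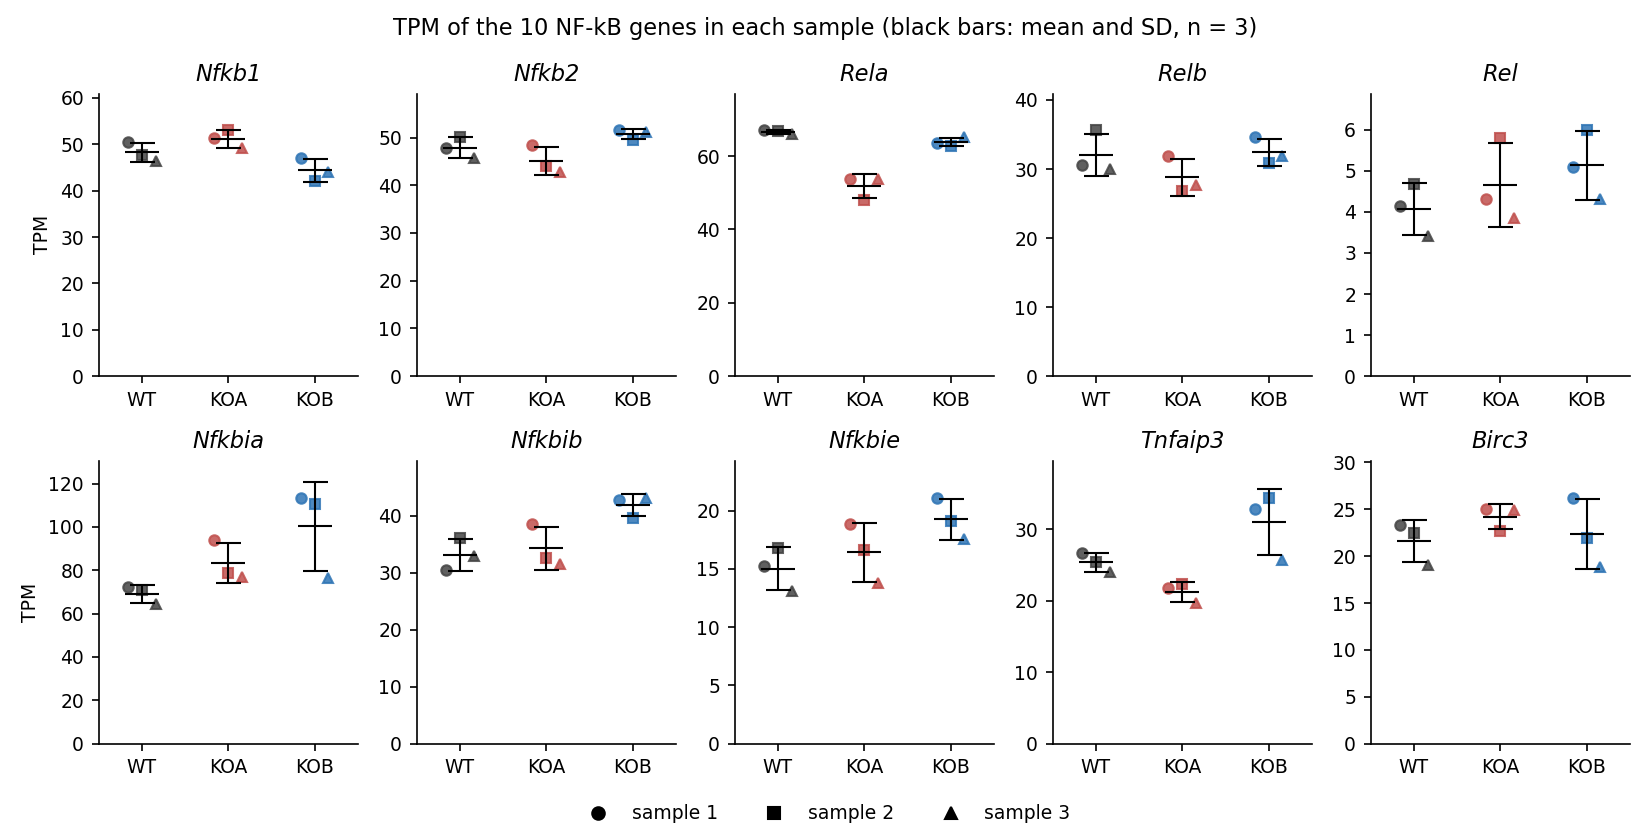
TPM (vertical axes, each from 0) of the 10 NF-kB genes by group; each symbol is 1 sample and the black bars give the mean and SD of 3 samples. Rela is lowest in the 3 Usp22-KOA samples (48.1 to 53.7 TPM), and Nfkbia is above all WT samples in all 6 knockout samples.

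Among the subunits, Rela, which encodes the main transactivating subunit RelA, was the one called against WT. It is located at chr19:5637483-5648130 (plus strand, GENCODE annotation of GRCm38, the mm10 build). Its level was 67.0, 66.9 and 66.0 TPM for WT, 53.7, 48.1 and 53.7 TPM for Usp22-KOA and 63.6, 62.8 and 65.2 TPM for Usp22-KOB. The WT samples lay within 1 TPM of each other, all 3 Usp22-KOA samples were below every other sample, and the Usp22-KOB samples were just below WT without overlap. Rela fell by 0.36 ± 0.06 for Usp22-KOA (95% interval -0.48 to -0.23, limma adjusted p = 0.000496). In Usp22-KOB the difference from WT was -0.06 ± 0.06 (interval -0.19 to 0.06, limma adjusted p = 0.415), and the direct comparison put Usp22-KOA below Usp22-KOB by -0.30 ± 0.06 (limma adjusted p = 0.00195). The average over both knockouts, -0.21 ± 0.05 (limma adjusted p = 0.00579), therefore combines values that differ between them, and with the 6 knockout samples treated as 1 group its adjusted p was 0.173 by limma.

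Cell type markers also differed between Usp22-KOA and WT. Fibroblast markers summed to 37.6 to 49.9 TPM for Usp22-KOA, against 367 to 669 TPM for WT and 555 to 828 TPM for Usp22-KOB, and 6 of the 7 were called lower in Usp22-KOA against WT. The endothelial markers summed to 4.56 to 10.2 TPM for Usp22-KOA, 31.3 to 43.1 TPM for WT and 23.3 to 35.0 TPM for Usp22-KOB. In Usp22-KOA against WT, 6 of the 6 tested were called lower. Mast cell markers summed to 844 to 1773 TPM for Usp22-KOA, 5.72 to 11.4 TPM for WT and 37.2 to 69.2 TPM for Usp22-KOB. Against WT, 6 of 6 were called higher in Usp22-KOA and 3 of 6 in Usp22-KOB. The epithelial markers summed to 6247 to 7027 TPM for Usp22-KOA, 7799 to 8307 TPM for WT and 6819 to 8333 TPM for Usp22-KOB. In Usp22-KOA 5 of 7 were called lower and 1 higher. Fibroblast and endothelial sums were thus lowest in Usp22-KOA, as Rela was. Mast cell markers in Usp22-KOB were above WT, and epithelial markers there overlapped both other groups. No marker of these lists was at 0 in all samples of a group, and the part of these cells in the Rela result was not tested. In such bulk samples, fewer cells of a type and less RNA per cell cannot be told apart.

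Nfkb1, which encodes a precursor that is cut to a subunit lacking a transactivation domain, did the reverse of Rela between the knockouts. It measured 50.5, 47.8 and 46.4 TPM for WT, 51.4, 53.0 and 49.1 TPM for Usp22-KOA and 47.1, 42.1 and 44.0 TPM for Usp22-KOB. Neither knockout was set apart from WT, with overlapping samples and differences of 0.08 ± 0.06 and -0.12 ± 0.06, but all Usp22-KOA samples were above all Usp22-KOB samples. That difference was 0.20 ± 0.06 (limma adjusted p = 0.0226). After quantile normalization it was 0.12 (limma adjusted p = 0.146), and it was also not called without Usp22-KOA replicate 1 (limma adjusted p = 0.0579), Usp22-KOA replicate 2 (0.0781) or Usp22-KOB replicate 2 (0.0872).

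Nfkb2 and Relb together make up the dimer of the alternative NF-kB pathway. Nfkb2 stood at 47.8, 50.1 and 45.8 TPM for WT, 48.4, 44.0 and 42.8 TPM for Usp22-KOA and 51.5, 49.5 and 51.1 TPM for Usp22-KOB. Both knockouts overlapped WT, and the Usp22-KOA samples lay below the Usp22-KOB samples by -0.17 ± 0.06 (limma adjusted p = 0.0454). This call is borderline: it was lost under 11 of the alternatives run, with adjusted p values between 0.0516 and 0.139 by limma. Relb measured 30.6, 35.6 and 30.04 TPM for WT, 31.9, 26.8 and 27.7 TPM for Usp22-KOA and 34.6, 30.8 and 31.8 TPM for Usp22-KOB. The Relb samples of the 3 groups overlapped and no comparison called it, with a difference of -0.07 ± 0.08 for both knockouts against WT (95% interval -0.25 to 0.11). Over the 9 samples Nfkb2 and Relb had the highest correlation of any pair of the 10 genes (Pearson r = 0.88 of log2(TPM + 1), given as a description, since the points share their groups).

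Rel, which encodes the c-Rel subunit best known from lymphoid cells, was the lowest of the 10 genes in each group. It was at 4.15, 4.67 and 3.41 TPM for WT, 4.33, 5.80 and 3.85 TPM for Usp22-KOA and 5.10, 5.99 and 4.32 TPM for Usp22-KOB. The groups overlapped throughout, and the difference for both knockouts against WT was 0.21 ± 0.14 (95% interval -0.11 to 0.53, limma adjusted p = 0.249).

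Of the 3 inhibitor genes, Nfkbia and Nfkbib rose in Usp22-KOB and none was called in Usp22-KOA. Nfkbia encodes IkB alpha, the inhibitor that NF-kB itself induces most quickly, and is located at chr12:55489410-55492647 (minus strand, GRCm38). Its level was 72.1, 71.1 and 64.5 TPM for WT, 94.1, 78.8 and 77.0 TPM for Usp22-KOA and 113, 111 and 76.5 TPM for Usp22-KOB. All 6 knockout samples were above all 3 WT samples, but the third Usp22-KOB sample was lower than the lowest Usp22-KOA sample. Nfkbia rose by 0.51 ± 0.15 for Usp22-KOB (95% interval 0.18 to 0.84, limma adjusted p = 0.0241) and by 0.38 ± 0.13 for both knockouts (interval 0.10 to 0.67, limma adjusted p = 0.0317). For Usp22-KOA the difference was 0.26 ± 0.15 and was not called (interval -0.07 to 0.59, limma adjusted p = 0.16), and the knockouts did not differ by the test (-0.25 ± 0.15, limma adjusted p = 0.186).

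The Nfkbia call rests on few samples. For both knockouts it was lost without any single WT sample (limma adjusted p = 0.0662, 0.0675 and 0.115), without Usp22-KOA replicate 1 (0.0607) and without Usp22-KOB replicate 1 (0.0583) or 2 (0.0635), and also after quantile normalization (0.0711) and median-of-ratios scaling (0.0502), and with the 6 knockout samples as 1 group (0.0956). Without Usp22-KOB replicate 3 the Usp22-KOB difference was 0.69 (limma adjusted p = 0.00109), and the Usp22-KOA difference from WT (0.027) and that between the knockouts (0.00567) passed as well. With only WT and Usp22-KOA in the fit, the Usp22-KOA difference also passed (limma adjusted p = 0.0423). In Usp22-KOB the call was lost without each WT sample in turn and without Usp22-KOB replicate 1 or 2, with limma adjusted p values between 0.0513 and 0.0883.

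Macrophage and monocyte markers were also higher in Usp22-KOB. Their summed level was 2074, 3231 and 2146 TPM for WT, 3505, 2910 and 1398 TPM for Usp22-KOA and 10546, 10352 and 5949 TPM for Usp22-KOB. The third Usp22-KOB sample is the lowest of its group in both the markers and Nfkbia, and the first Usp22-KOA sample is the highest of its group in both. Other samples did not follow this: the first WT sample is the lowest of its group in the markers and the highest in Nfkbia. The third Usp22-KOA sample, the lowest of all samples in the markers, was above every WT sample in Nfkbia. All 10 markers were called higher in Usp22-KOB against WT and 0 of 10 for Usp22-KOA. Csf1r, the receptor that defines this lineage, was at 49.2 ± 14.5 TPM for WT, 38.7 ± 14 TPM for Usp22-KOA and 168 ± 54.6 TPM for Usp22-KOB (SD, n = 3). Markers of other cell types in the third Usp22-KOA sample lay on both sides of WT. Its mast cell sum was 844 TPM (WT 5.72 to 11.4 TPM) and its T cell sum 30.3 TPM (WT 10.2 to 18.0 TPM). Its pan-leukocyte sum, 436 TPM, lay within the WT range (287 to 519 TPM), and its neutrophil sum, 599 TPM, lay below WT (647 to 697 TPM). The part of any of these cell types in the Nfkbia result was not tested.

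**Figure D2:**
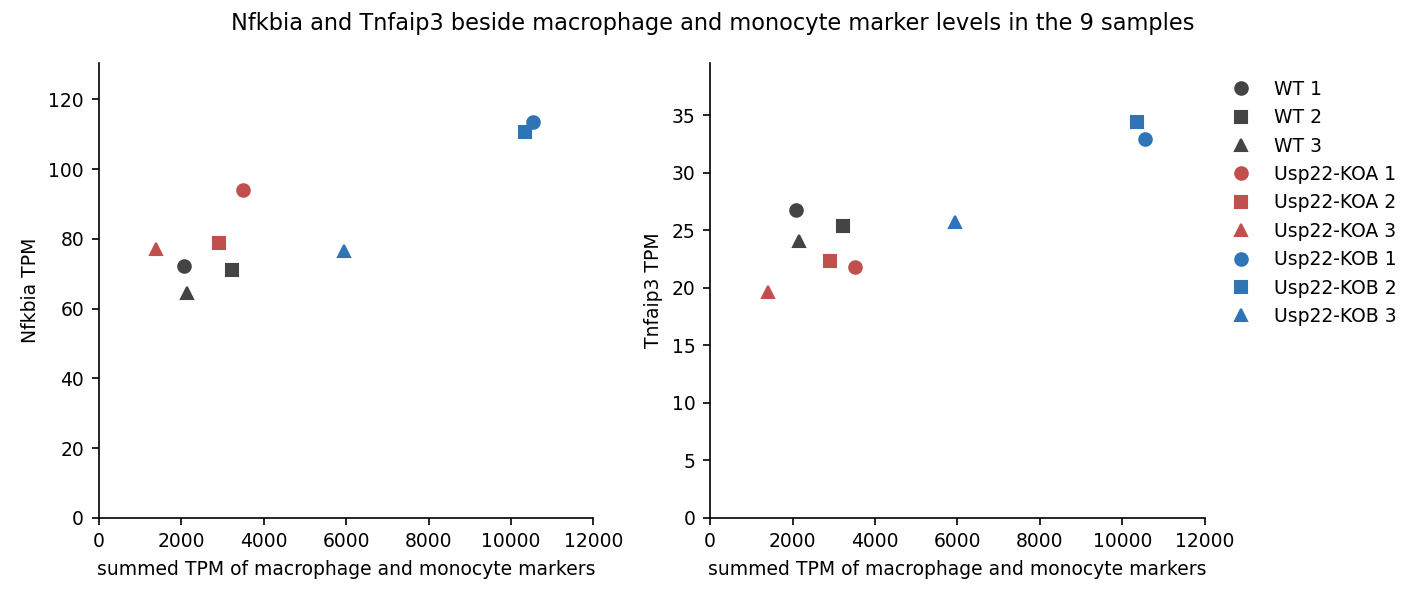
TPM of Nfkbia (left) and Tnfaip3 (right) on the vertical axes against the summed TPM of 10 macrophage and monocyte markers on the horizontal axes, with 1 symbol per sample. The Usp22-KOB samples lie at 5949 to 10546 TPM of markers and the other 6 samples at 1398 to 3505 TPM; the third Usp22-KOB sample is lower in the markers and in both genes than the other Usp22-KOB samples.

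Sequence before the start sites was read to show where the letters of the kappaB consensus, the 10-base element that NF-kB dimers bind, occur in these genes. The 250 bases before each RefSeq start (GRCm38.p6) were searched on both strands by this consensus alone, and overlapping matches were counted once per gene. Of the 10 genes, 8 had an entry (Nfkb1 and Relb had none), and 5 of the 8 held at least 1 match: Nfkb2, Rel, Nfkbia, Nfkbie and Tnfaip3. Rela, Nfkbib and Birc3 held none in this window. Among 10507 tested genes with an entry, 5.41% held a match, and among all 32851 entries 3.90% did. The 10 genes were chosen as NF-kB genes, some of them known to be induced by NF-kB, so these shares cannot test for an excess of matches. Nfkb2 and Tnfaip3 also had more windows searched than the other genes of the set. The Nfkbia window is shown because Nfkbia is the gene of this set that was called higher for both knockouts against WT; it covers chr12:55492648-55492897 (minus strand, outside the annotated transcripts), and capitals mark the match at bases -29 to -20 from the start.
Nfkbia: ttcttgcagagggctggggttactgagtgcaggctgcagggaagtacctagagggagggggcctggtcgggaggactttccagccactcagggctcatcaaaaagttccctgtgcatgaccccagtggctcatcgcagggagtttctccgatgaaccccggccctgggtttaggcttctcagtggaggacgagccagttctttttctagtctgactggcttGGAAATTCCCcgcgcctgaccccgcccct
For the other 4 genes, matches are shown as windows of 30 bases, with the match, and any that overlaps it, in capitals, so that they can be set beside that of Nfkbia. Nfkb2 has 3 listed starts, and its 3 further matches, at bases -11 to -2 from the first start, -236 to -227 from the second and -225 to -216 from the third, are not shown. The windows are Rel at chr11:23771042-23771071 (minus strand, outside the annotated transcripts), Nfkb2 at chr19:46304688-46304717 (plus strand, overlapping an annotated exon), Nfkbie at chr17:45555584-45555613 (plus strand, outside the annotated transcripts) and Tnfaip3 at chr10:19015411-19015440 and chr10:19015516-19015545 (minus strand, in an annotated intron of a longer transcript).
Rel: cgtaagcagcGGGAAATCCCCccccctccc
Nfkb2: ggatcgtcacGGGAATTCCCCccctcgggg
Nfkbie: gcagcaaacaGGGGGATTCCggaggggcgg
Tnfaip3 near: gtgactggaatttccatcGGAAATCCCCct
Tnfaip3 far: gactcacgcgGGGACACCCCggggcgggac
Of the genes called higher in Usp22-KOB, Nfkbia has a match, and Nfkbib has none in the window searched. That Nfkbib window, at chr7:28766645-28766894 (minus strand), lies in an annotated intron. The annotated start of Nfkbib is at base 28767512, and the sequence before it was not searched. The lack of a match for Nfkbib is therefore not read further. A match of letters is a description and not evidence of binding.

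Nfkbib encodes IkB beta, which is resynthesized more slowly than IkB alpha. It was at 30.4, 36.0 and 33.0 TPM for WT, 38.7, 32.6 and 31.6 TPM for Usp22-KOA and 42.7, 39.7 and 43.2 TPM for Usp22-KOB. The 3 Usp22-KOB samples were above all other samples, while Usp22-KOA overlapped WT. Nfkbib rose by 0.33 ± 0.09 for Usp22-KOB (95% interval 0.12 to 0.54, limma adjusted p = 0.0204) and the difference in Usp22-KOA was 0.04 ± 0.09 (limma adjusted p = 0.701). The direct comparison gave -0.29 ± 0.09 for Usp22-KOA against Usp22-KOB (limma adjusted p = 0.0269). The rise was not called without WT replicate 1 (limma adjusted p = 0.078), WT replicate 3 (0.0552) or Usp22-KOB replicate 1 (0.0608), and the difference between knockouts was not called without Usp22-KOA replicate 2 or 3 or Usp22-KOB replicate 1 or 3 (between 0.0647 and 0.0898).

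Nfkbie, the gene of IkB epsilon, measured 15.2, 16.8 and 13.1 TPM for WT, 18.8, 16.6 and 13.8 TPM for Usp22-KOA and 21.1, 19.2 and 17.6 TPM for Usp22-KOB. Usp22-KOB was above WT in every sample and Usp22-KOA overlapped both groups. The difference in Usp22-KOB was 0.34 ± 0.13 and was not called (95% interval 0.05 to 0.63, limma adjusted p = 0.0645); without Usp22-KOA replicate 3, which enters the shared spread, its limma adjusted p was 0.0387. Over the 9 samples Nfkbie correlated with Nfkbia at r = 0.85 and with Nfkbib at r = 0.81 (Pearson, as a description).

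The feedback gene Tnfaip3 encodes A20, a ubiquitin-editing enzyme that NF-kB induces and that shuts off signalling from TNF receptors; it is located at chr10:19000910-19015657 (minus strand, GRCm38). It was the gene of the set that differed most between the knockouts. Its level was 26.7, 25.4 and 24.0 TPM for WT, 21.8, 22.3 and 19.6 TPM for Usp22-KOA and 32.9, 34.4 and 25.8 TPM for Usp22-KOB. Every Usp22-KOA sample was below every WT sample, 2 Usp22-KOB samples were above every WT sample, and the third Usp22-KOB sample lay inside the WT range. Tnfaip3 was lower in Usp22-KOA than Usp22-KOB by -0.52 ± 0.11 (95% interval -0.76 to -0.27, limma adjusted p = 0.00364), a difference larger than that of 68.9% of tested genes. This call was kept under each alternative run.

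Neither change of Tnfaip3 from WT was called. The differences were -0.25 ± 0.11 for Usp22-KOA (limma adjusted p = 0.0804) and 0.27 ± 0.11 for Usp22-KOB (limma adjusted p = 0.0792), and they average to 0.01 ± 0.09 over both knockouts. Without Usp22-KOB replicate 3 the differences of both knockouts from WT passed, at -0.25 (limma adjusted p = 0.0147) and 0.40 (0.0051). With only WT and Usp22-KOA in the fit, the Usp22-KOA difference passed too (limma adjusted p = 0.0254), as it did after rescaling without the 10 highest features of each sample (limma adjusted p = 0.0473). Beside the direct comparison, 9 of the 10 macrophage and monocyte markers were called lower in Usp22-KOA than Usp22-KOB, and their part in the Tnfaip3 difference was not tested.

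Birc3 encodes cIAP2, a ubiquitin ligase of the TNF receptor complex that is induced by NF-kB. It measured 23.3, 22.4 and 19.1 TPM for WT, 25.0, 22.7 and 25.0 TPM for Usp22-KOA and 26.2, 22.0 and 18.8 TPM for Usp22-KOB. The groups overlapped and no comparison called it; the difference for both knockouts was 0.10 ± 0.10 (95% interval -0.14 to 0.34, limma adjusted p = 0.454).

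**Figure D3:**
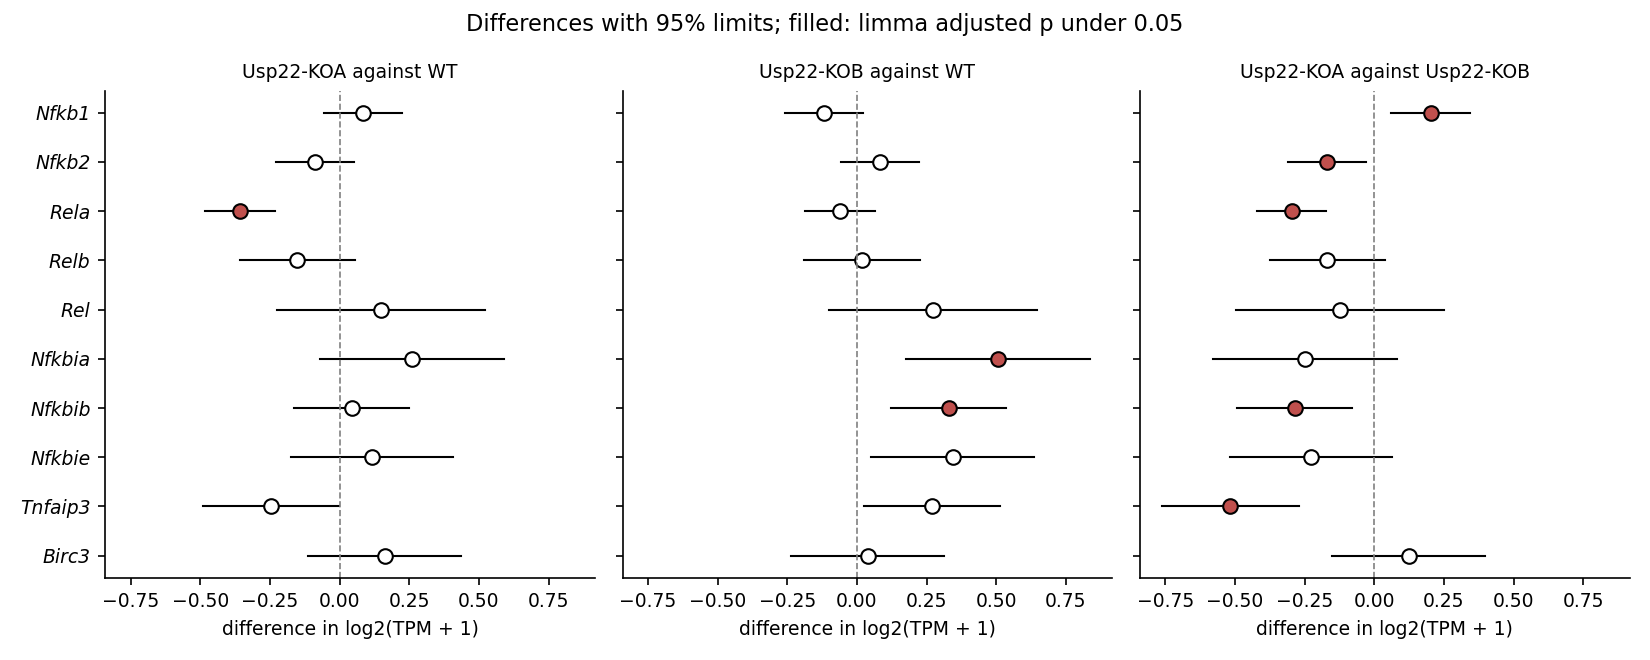
Differences in log2(TPM + 1) of the 10 NF-kB genes (rows) for each knockout against WT (left and middle) and for Usp22-KOA against Usp22-KOB (right), with 95% intervals from limma as lines and filled points for an adjusted p under 0.05. Rela lies below 0 for Usp22-KOA against WT and against Usp22-KOB, and Tnfaip3 has the lowest value of the set in Usp22-KOA against Usp22-KOB at -0.52.

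The order of levels was much alike in the 3 groups. TPM is scaled to transcript length, so levels can be set side by side between genes. In WT the order was Nfkbia, Rela, Nfkb1, Nfkb2, Nfkbib, Relb, Tnfaip3, Birc3, Nfkbie and Rel, with mean levels from 69.2 down to 4.08 TPM. Neighbours that overlapped in WT were Nfkbia and Rela, Nfkb1 and Nfkb2, and Nfkbib and Relb. In Usp22-KOA the overlapping neighbours were Rela with Nfkb1 and Nfkbib with Relb, and Birc3 (24.2 TPM) stood above Tnfaip3 (21.3 TPM) with no overlap. In Usp22-KOB, Nfkb2 (50.7 TPM) stood above Nfkb1 (44.4 TPM), and Nfkb1 overlapped with Nfkbib. Relb with Tnfaip3, Tnfaip3 with Birc3, and Birc3 with Nfkbie overlapped there as well. Nfkbia was clear of Rela in both knockouts, at 83.3 against 51.9 TPM for Usp22-KOA and 100.2 against 63.8 TPM for Usp22-KOB.

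The balance within the set was described from sums of TPM in each sample, with no test, since the sums are made of the genes tested above. The 5 subunits summed to 199 ± 6.76 TPM for WT, 182 ± 7.06 TPM for Usp22-KOA and 197 ± 5.39 TPM for Usp22-KOB (SD, n = 3). The 3 inhibitors summed to 117 ± 6.68, 134 ± 15.5 and 161 ± 21.2 TPM. Inhibitor RNA per subunit RNA was 0.589, 0.604 and 0.577 for WT, 0.799, 0.721 and 0.690 for Usp22-KOA and 0.878, 0.887 and 0.699 for Usp22-KOB. All 6 knockout samples were above the WT samples in this ratio, and the third Usp22-KOB sample fell within the Usp22-KOA range.

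The subunits contributed unequally to these sums. Rela held 33.5 ± 0.907% of the subunit RNA in WT, 28.6 ± 1.63% for Usp22-KOA and 32.5 ± 0.887% for Usp22-KOB, whereas Nfkb1 held 24.3 ± 0.984%, 28.2 ± 1.43% and 22.6 ± 0.675%. Rela per Nfkb1 was 1.38 ± 0.0513 for WT, 1.02 ± 0.0963 for Usp22-KOA and 1.44 ± 0.0787 for Usp22-KOB. The Usp22-KOA samples, at 0.908 to 1.09, were below the other 6 samples, at 1.33 to 1.49. Ratios within a library do not depend on how the libraries are scaled, and they show unequal change, not which of the genes moved.

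**Figure D4:**
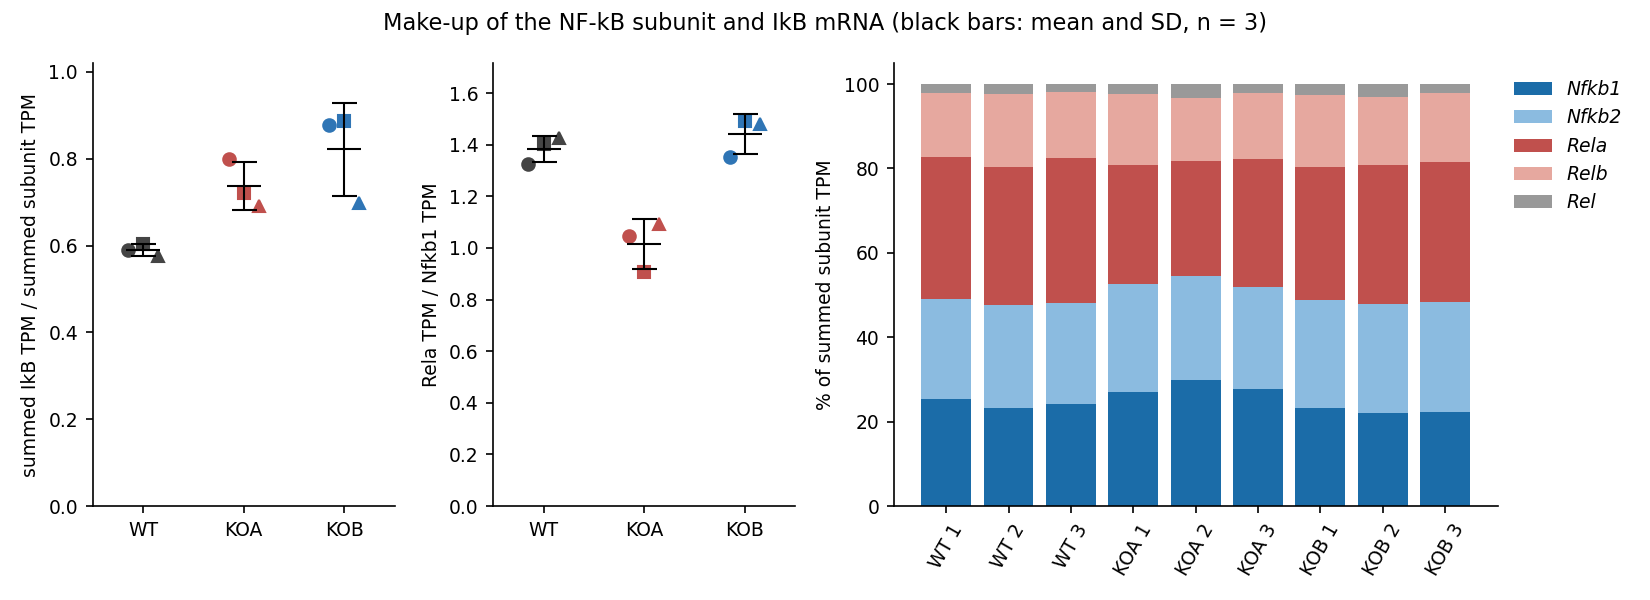
Summed inhibitor TPM per summed subunit TPM (left) and Rela per Nfkb1 TPM (middle), with 1 symbol per sample and black bars for the mean and SD of 3 samples, and the percent of the summed subunit TPM held by each of the 5 subunits in each sample (right, stacked bars). Inhibitor RNA per subunit RNA lies at 0.577 to 0.604 for WT and at 0.690 to 0.887 in the 6 knockout samples.

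Beyond the 10 genes, the pathway was followed upstream and downstream with lists of genes set out by role. Their counts stand beside the shares of all tested genes called higher and lower, which were 25.9% and 24.1% for both knockouts against WT, 29.4% and 26.9% for Usp22-KOA, 18.7% and 18.4% for Usp22-KOB, and 27.5% and 24.2% between the knockouts. Of 18 further inhibitors and feedback regulators, 3 were called higher and 4 lower for both knockouts against WT, with a median log2 difference of 0.00. Tnip3, which encodes a binding partner of A20, fell from 14.2 ± 0.33 TPM for WT to 4.89 ± 0.89 TPM for Usp22-KOA and 9.70 ± 0.567 TPM for Usp22-KOB (-0.94 ± 0.10, limma adjusted p = 6.03e-05). Otud7b, a deubiquitinase of the alternative pathway, fell by 0.40 ± 0.08 (limma adjusted p = 0.00281), though in Usp22-KOA alone it was not called (limma adjusted p = 0.114). N4bp1 and Rnf11, which also restrain NF-kB signalling, rose by 0.33 ± 0.05 and 0.23 ± 0.05. In Usp22-KOB alone N4bp1 was not called (limma adjusted p = 0.0544), and the Rnf11 call there was lost under 11 of the alternatives run. Between the knockouts, 7 of the 18 were called higher in Usp22-KOA and 4 lower, among them Tax1bp1, an adaptor of A20 (0.80 ± 0.09), and Usp21, a deubiquitinase (-0.67 ± 0.08). Tnip3 and Tnfaip3 were thus both lower in Usp22-KOA than Usp22-KOB, while Tax1bp1 was higher. In Usp22-KOB against WT, Tnip3 was called lower (-0.51) and Tnfaip3 was not called (0.27).

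Of 12 IKK and related kinases and their partners, 2 were called higher and 2 lower for both knockouts (median 0.04). Tbk1, a kinase related to the IKKs, rose from 21.3 ± 1.53 TPM for WT to 32.8 ± 1.04 TPM for Usp22-KOA and 29.2 ± 2.4 TPM for Usp22-KOB (0.52 ± 0.07, limma adjusted p = 0.000262). Map3k3, which activates the IKKs, rose by 0.30 ± 0.05. Tab1 and Tab2, partners of the kinase TAK1, fell by 0.57 ± 0.08 and 0.34 ± 0.05. Ikbke, the relative of Tbk1, was at 16.3 ± 1.59 TPM for WT, 10.2 ± 1.41 TPM for Usp22-KOA and 23.1 ± 2.23 TPM for Usp22-KOB, so that it fell in 1 knockout and rose in the other and differed between them by -1.11 ± 0.12 (limma adjusted p = 7.4e-05). Tab3 was higher in Usp22-KOA than Usp22-KOB by 0.92 ± 0.14.

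Of 27 adaptors and ubiquitin ligases, 9 were called higher and 2 lower for both knockouts (median 0.16); in Usp22-KOA the counts were 11 and 3 and in Usp22-KOB 6 and 1. The shares of all genes called higher and lower were 25.9% and 24.1% for both knockouts. Traf2, an adaptor of TNF receptors, rose from 18.6 ± 0.878 TPM for WT to 33.3 ± 0.591 TPM for Usp22-KOA and 21.8 ± 2.06 TPM for Usp22-KOB, by 0.51 ± 0.07 for both knockouts (limma adjusted p = 0.000226). Ripk1 rose by 0.38 ± 0.06 and Tradd by 0.39 ± 0.06, and Rbck1, a part of the linear ubiquitin ligase, by 0.39 ± 0.05. For Traf2 and Tradd the rise in Usp22-KOB alone was not called (limma adjusted p = 0.0504 and 0.0631). Ticam1, the adaptor of Toll-like receptor signalling known as TRIF, and Ube2v1, which helps to build ubiquitin chains, were higher in Usp22-KOA than Usp22-KOB by 0.58 ± 0.10 and 0.37 ± 0.06.

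Of 22 receptors, 21 were tested (Tnfrsf13c was below the filter), and 8 were called higher and 2 lower for both knockouts (median 0.01). The interleukin-18 receptor gene Il18r1 fell most, from 23.0 ± 3.48 TPM for WT to 2.15 ± 0.223 TPM for Usp22-KOA and 15.2 ± 2.56 TPM for Usp22-KOB (-1.74 ± 0.12, limma adjusted p = 6.97e-06). Tlr4, the endotoxin receptor, and its partner Cd14 rose by 0.60 ± 0.05 and 0.45 ± 0.06, and the TNF receptor Tnfrsf1b rose by 0.67 ± 0.10. Usp22-KOA was called lower than Usp22-KOB in 9 of the 21 and higher in 4, with Tnfrsf9, a costimulatory receptor of T cells, at -2.09 ± 0.23 and the interleukin-1 receptor gene Il1r1 at -0.89 ± 0.10. Pan-leukocyte markers summed to 287 to 519 TPM for WT, 436 to 865 TPM for Usp22-KOA and 727 to 1507 TPM for Usp22-KOB, with 6 of 8 called higher for both knockouts. The part of leukocytes in the receptor values was not tested.

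Of 14 ligands, 11 were tested (Lta, Tnfsf11 and Cd40lg were below the filter), and 2 were called higher and 4 lower for both knockouts (median -0.03). Il18, the ligand of Il18r1, fell from 29.5 ± 5.37 TPM for WT to 7.77 ± 1.03 TPM for Usp22-KOA and 10.1 ± 2.61 TPM for Usp22-KOB (-1.63 ± 0.16, limma adjusted p = 4.91e-05). Il33, a relative of interleukin-1, fell by 0.89 ± 0.09, and Il1rn, whose protein blocks the interleukin-1 receptor rather than activating it, fell by 0.74 ± 0.08. Tnfsf13b, which encodes the B cell survival factor BAFF, rose from 3.52 ± 0.0956 TPM to 16.3 ± 1.28 TPM for Usp22-KOA and 5.84 ± 1.07 TPM for Usp22-KOB (1.26 ± 0.10, limma adjusted p = 1.6e-05). Il1a, the gene of interleukin-1 alpha, was at 15.4 ± 0.909 TPM for WT, 2.54 ± 0.908 TPM for Usp22-KOA and 17.3 ± 3.22 TPM for Usp22-KOB, and differed between the knockouts by -2.38 ± 0.19 (limma adjusted p = 1.39e-05). Tnfsf9, the ligand of Tnfrsf9, was lower in Usp22-KOA than Usp22-KOB by -0.76 ± 0.13.

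Of 35 known NF-kB target genes outside the 10, 34 were tested (Sele was below the filter). For both knockouts against WT 14 were called higher and 6 lower, beside 25.9% and 24.1% of all genes. The median log2 difference was 0.38, beside 0.01 over all genes. In Usp22-KOA the counts were 12 and 5 (median 0.15, beside 29.4% and 26.9% of all genes) and in Usp22-KOB 14 and 5 (median 0.48, beside 18.7% and 18.4%). Against WT, 10 of 10 macrophage and monocyte markers and 6 of 8 pan-leukocyte markers were called higher in Usp22-KOB, and 0 and 3 in Usp22-KOA. The part of these cells in the target counts was not tested. Tapbp, which loads peptides onto MHC class I, rose from 148 ± 9.95 TPM for WT to 336 ± 20 TPM for Usp22-KOA and 238 ± 5.18 TPM for Usp22-KOB (0.93 ± 0.05, limma adjusted p = 2.22e-06). The transcription factor gene Irf1 rose by 0.97 ± 0.08 and Sod2, a mitochondrial superoxide dismutase, by 0.59 ± 0.06. Both Tapbp and Irf1 are also known targets of interferon. The chemokine gene Cxcl5 fell from 407 ± 30.6 TPM for WT to 114 ± 16.1 TPM for Usp22-KOB and was at 352 ± 48.8 TPM for Usp22-KOA (-1.02 ± 0.10 for both knockouts, limma adjusted p = 6.07e-05), where the difference was not called (limma adjusted p = 0.159).

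Between the knockouts, 11 of the 34 targets were called higher in Usp22-KOA and 11 lower, beside 27.5% and 24.2% of all tested genes. Lcn2, which encodes an iron-binding protein of neutrophils and inflamed epithelium, was at 189 ± 15.6 TPM for WT, 425 ± 49.2 TPM for Usp22-KOA and 51.2 ± 7.32 TPM for Usp22-KOB. It rose in Usp22-KOA by 1.16 ± 0.12 and fell in Usp22-KOB by 1.87 ± 0.12, so that the knockouts differed by 3.03 ± 0.12 (limma adjusted p = 3.29e-07). The adhesion molecule gene Icam1 was higher in Usp22-KOA than Usp22-KOB by 0.64 ± 0.07. Neutrophil markers summed to 647 to 697 TPM for WT, 599 to 1532 TPM for Usp22-KOA and 152 to 512 TPM for Usp22-KOB. Of these, 5 of 6 were called higher in Usp22-KOA than Usp22-KOB. The other, Retnlg, lay the other way at 38.9 ± 24.2 TPM for Usp22-KOA and 107 ± 49.1 TPM for Usp22-KOB (-1.57 ± 0.62, limma adjusted p = 0.0594, not called). The part of neutrophils in the Lcn2 difference was not tested.

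**Figure D5:**
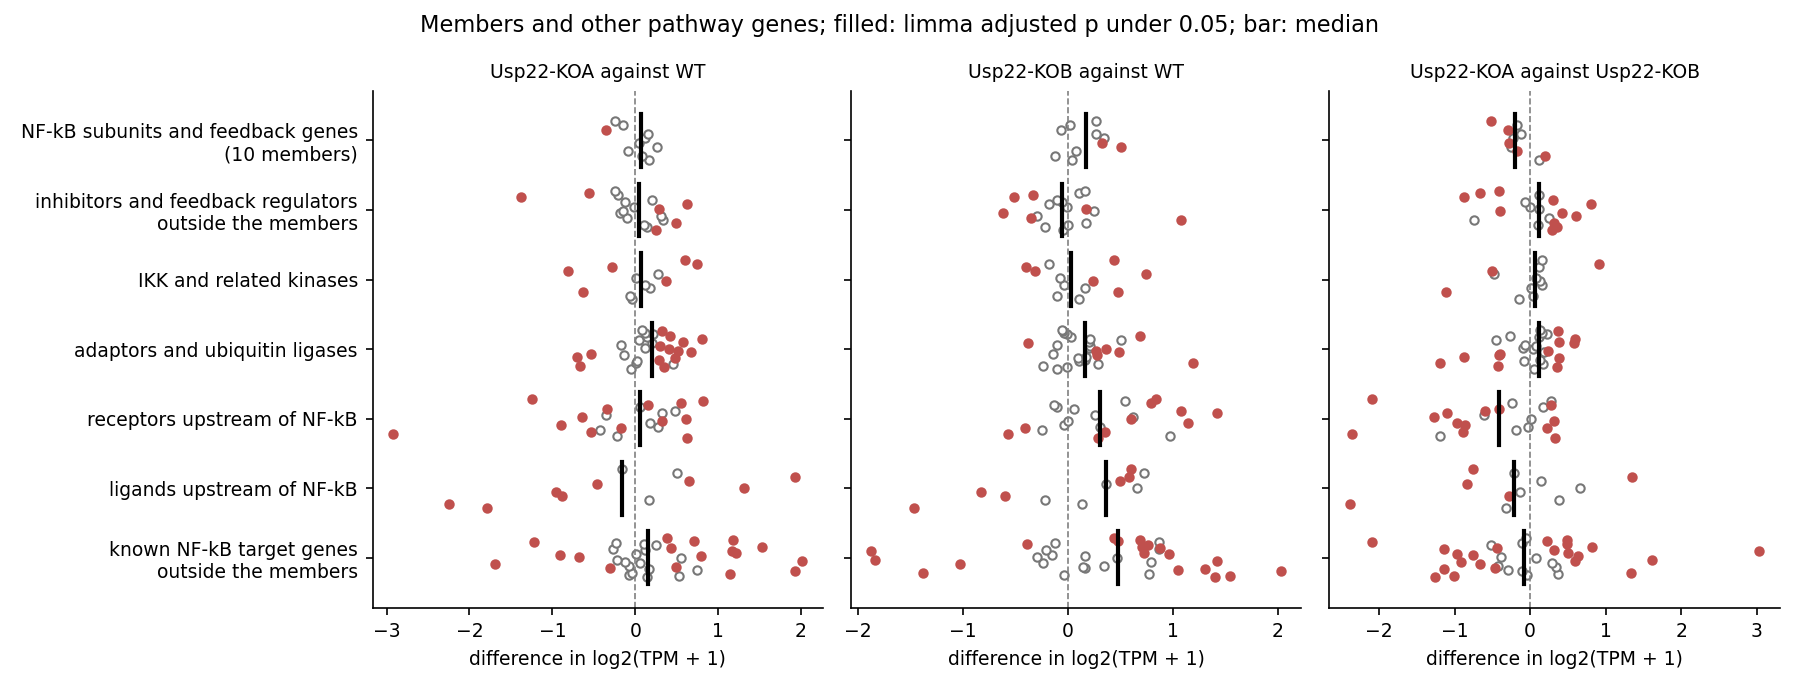
Log2 differences of the tested genes of each list by role (1 point per gene, filled for a limma adjusted p under 0.05, with a black bar at the median) for each knockout against WT (left and middle) and for Usp22-KOA against Usp22-KOB (right). The 10 NF-kB genes lie between -0.36 and 0.26 in Usp22-KOA against WT, a narrower range than that of the 34 target genes, at -1.69 to 2.02.

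The tested genes most like the called NF-kB genes over the 9 samples were also read, as a description, by Pearson r of log2(TPM + 1). For Rela they were Ivl, a protein of the cornified envelope (r = 0.988), Prr5, a part of the mTORC2 complex (0.986), and Oplah, an enzyme of glutathione metabolism (0.985). Each was lowest in Usp22-KOA by a wider margin than Rela, for example Oplah at 16.2 ± 0.218 TPM for WT, 0.999 ± 0.475 TPM for Usp22-KOA and 10.1 ± 1.34 TPM for Usp22-KOB. For Nfkbia they were Fam49a (0.978), Ntng2 (0.976) and Hpgds, a prostaglandin synthase (0.975), all at means of 6.49 TPM or less. The 9 points of each r share the 3 groups.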

How the data were processed

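Polyadenylated RNA of 9 samples was measured by RNA-seq. The authors deposited 1 table of gene levels in TPM, with 24493 gene symbols and 1 column for each sample. The mm10 build, Salmon and DESeq2 are named per the submitters' processing notes; their versions and roles, and the annotation, were not given in the sources used here. Counting error is unknown, since TPM does not hold the read depth.

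The TPM were put on the log2(TPM + 1) scale. The 13843 genes whose mean over all samples reached 1 TPM entered 1 limma fit (version 3.58.1, R 4.3.3) with a mean per group and an intensity trend, so that 3 groups of 3 samples share 1 estimate of the spread, and 10650 genes were not tested. The steps were tested on simulated data. Adjustment was by Benjamini-Hochberg over all genes tested, at a threshold of 0.05. Usp22 also had an exact permutation test.

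The 10 genes, the lists by role and the marker lists were chosen with earlier results of these data known. Genes named from a list are up to 4 with the smallest adjusted p among those called for both knockouts and up to 2 more for Usp22-KOA against Usp22-KOB; the 3 genes most like each gene called for both knockouts and the defining markers were also named. Predicted gene models were passed over in the search for like genes. Replicate numbers were not used as a block, because the labels name no shared animal, day or batch, and deviations of samples with the same number did not correlate throughout (r between -0.12 and 0.28). Promoter sequences are from RefSeq (GRCm38.p6) and positions from GENCODE. Alternatives were other pseudocounts, filters and scalings, no trend, the block, a fit of the compared groups alone, both knockouts as 1 group of 6 samples, and leaving out each sample.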

Additional observations from a re-analysis of the deposited data

Results flagged for a closer look

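For 5 of the 10 NF-kB genes the effect of the knockout differed between Usp22-KOA and Usp22-KOB by the direct test in limma, where WT cancels, beside 27.5% of all tested genes called higher and 24.2% called lower in that test; 5 of 10 is near that background. The differences (Usp22-KOA minus Usp22-KOB, log2) were 0.202 for Nfkb1, -0.169 for Nfkb2 (a call lost under 11 of the alternatives run), -0.297 for Rela, -0.285 for Nfkbib and -0.516 for Tnfaip3. Usp22 itself differed by -0.479, with 9.44 ± 0.867 TPM for Usp22-KOA and 13.6 ± 1.62 TPM for Usp22-KOB.

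Of the named genes of the pathway lists, those higher in Usp22-KOA were Cd14 (0.333), Cxcl5 (1.62), Icam1 (0.639), Irf1 (0.499), Lcn2 (3.03), N4bp1 (0.318), Otud7b (0.428), Rbck1 (0.241), Sod2 (0.229), Tab3 (0.917), Tapbp (0.493), Tax1bp1 (0.805), Ticam1 (0.577), Tnfsf13b (1.35), Tradd (0.382), Traf2 (0.589) and Ube2v1 (0.368). Those lower in Usp22-KOA were Ikbke (-1.11), Il18r1 (-2.36), Il1a (-2.38), Il1r1 (-0.89), Il1rn (-0.284), Tab1 (-0.502), Tnfrsf9 (-2.09), Tnfsf9 (-0.757), Tnip3 (-0.871) and Usp21 (-0.666). The genes most like Rela differed in the same way, with Ivl at -1.47, Prr5 at -1.37 and Oplah at -2.49. Many of these genes were named because they differ in this comparison.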

How the results depend on the processing

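Calls on the 10 NF-kB genes were few and several were close to the threshold, so the counts moved. For both knockouts against WT, 2 were called, against 1 after quantile normalization, 1 after median-of-ratios scaling, 0 with the 6 knockout samples as 1 group and 1 to 3 when single samples were left out. For Usp22-KOA 1 was called, against 2 after quantile normalization (which added Nfkb2), 2 after rescaling without the 10 highest features of each sample, 3 with only the groups compared and 1 to 3 when samples were left out. For Usp22-KOB 2 were called, against 0 to 3 when samples were left out, and for Usp22-KOA against Usp22-KOB 5 were called, against 2 to 4. With the 6 knockout samples as 1 group, 2946 of all genes were called in place of 6920; that setting puts the difference between the knockouts into the spread.

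The replicate block gave 2 calls for Usp22-KOA and 4 for Usp22-KOB: it added Tnfaip3 in both (limma adjusted p = 0.0352 and 0.0371) and Nfkbie in Usp22-KOB (0.0208) and for both knockouts (0.041), and it ended the calls of Nfkb2 between the knockouts (0.0701) and of Rnf11 in Usp22-KOB (0.0766). The numbers do not pair the samples by the labels.

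Signs that turned belonged to values near 0 that no fit called. For both knockouts, Tnfaip3 was -0.00845 after quantile normalization, -0.0209 after rescaling and between -0.0269 and 0.0741 when single samples were left out. Nfkb2 was 0.00415 after median-of-ratios scaling and between -0.0336 and 0.0295 without single samples, Nfkb1 between -0.0442 and 0.0166 and Relb between -0.11 and 0.00834. For Usp22-KOA, Nfkb1 was -0.0283 and Nfkbib -0.0372 after quantile normalization, and Nfkbib lay between -0.0428 and 0.104 without single samples. For Usp22-KOB, Relb was -0.0126 after quantile normalization and -0.00462 after rescaling, and without single samples Relb lay between -0.0293 and 0.0926 and Birc3 between -0.0792 and 0.15. Rel between the knockouts was 0.0253 after quantile normalization. The cause of these changes was not tested. The TPM table gives no depth, and with 3 samples a group small changes such as those of Rel and Birc3 cannot be resolved.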
